A study of Mus musculus with 6 samples.

Results

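The genes described here are 33 mouse germline genes, chosen by name for their roles in germ cells: 10 of the piRNA pathway, 8 of meiotic chromosome synapsis and cohesion, 6 of RNA binding, meiotic entry and early germ cells, 2 of the oocyte and 7 of other testis functions. All 33 were found among the 22350 protein-coding genes annotated on chromosomes 1 to 19 and X of the mouse genome mm9 (NCBIM37). The question was whether the silencing mark H3K9me3 (trimethylation of lysine 9 of histone H3) lay on these genes in myoblasts where no Setdb1 site was listed. Chromatin came from C2C12, an established mouse myoblast line that forms myotubes when serum is withdrawn. The cells were untreated and kept in DMEM with 20% fetal calf serum. Chromatin immunoprecipitation followed by sequencing (ChIP-seq) was done with an antibody against H3K9me3 and an antibody against Setdb1, a methyltransferase that makes this mark, and an input library was sequenced for each. The labels name 6 libraries, each the sole library of its group, so no value here has a replicate. The Setdb1 libraries with DMSO and with Wnt3a were not analysed, and the Setdb1 list does not state which Setdb1 library it came from. The study reports that peaks were called on the most enriched of its independent Setdb1 experiments, without naming the library.

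Germline genes are read in germ cells and kept silent in somatic tissues. Many have CpG-rich starts that carry DNA methylation in somatic cells. In mouse embryonic stem cells, a Polycomb complex with E2f6, Mga and Max binds E2f-type motifs and E-boxes at such starts, and H3K9 methylation by Setdb1 or by G9a contributes to silencing of a subset of them. The region lists hold neither expression nor DNA methylation, so silence of the genes was not measured here, and C2C12 identity could not be checked against marker expression.

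Regions of H3K9me3 were found at the starts of a minority of the germline genes, and no Setdb1 site was listed at any of them. Of the 33 genes, 9 (27.3%) had an H3K9me3 region within 1 kb of an annotated transcript start, against 11.7% of all protein-coding genes. These were Sycp2, Sycp1, Piwil1, Mael, Mov10l1, Dazl, Tex14, Tuba3a and Tuba3b. A region here is the union of the narrow peaks listed by MACS and the broad islands listed by SICER. MACS peaks alone gave 8 germline genes (24.2%), against 8.71% of all genes, and islands alone 6 (18.2%), against 8.58%. Setdb1 sites within this distance were listed at 0 of the 33 germline genes, against 1.11% of all genes. At the lengths of the germline genes this background amounts to 0.443 genes in a list of 33.

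In gene bodies the difference was smaller. An H3K9me3 region overlapped the body of 14 germline genes (42.4%), against 29.9% of all genes. The 5 genes added to those at starts were Tdrd1, Asz1, Smc1b, Stag3 and Stk31. Bodies of all 14 held a MACS peak (28.1% of all genes) and 6 held an island (18.2%, against 19.4%). No Setdb1 site lay in a germline gene body, against 2.4% of all genes. Germline gene bodies were longer, with a median of 28 kb against 15.4 kb. Protein-coding genes of the same length classes as the germline genes had a region in the body in 35% of cases and at a start in 11.4%. These length classes were set after the data were seen.

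Within 50 kb of a start the germline genes were close to the background. A region was found near 26 of them (78.8%), against 75.5% of all genes, a MACS peak near the same number (74.4% of all genes) and an island near 17 (51.5%, against 49.9%). A Setdb1 site was found within this distance of Mov10l1 alone (3.03%), against 8.14% of all genes. At the lengths of the germline genes the background share for Setdb1 was 8.84%, or 2.92 genes in a list of 33.

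**Figure D1:**
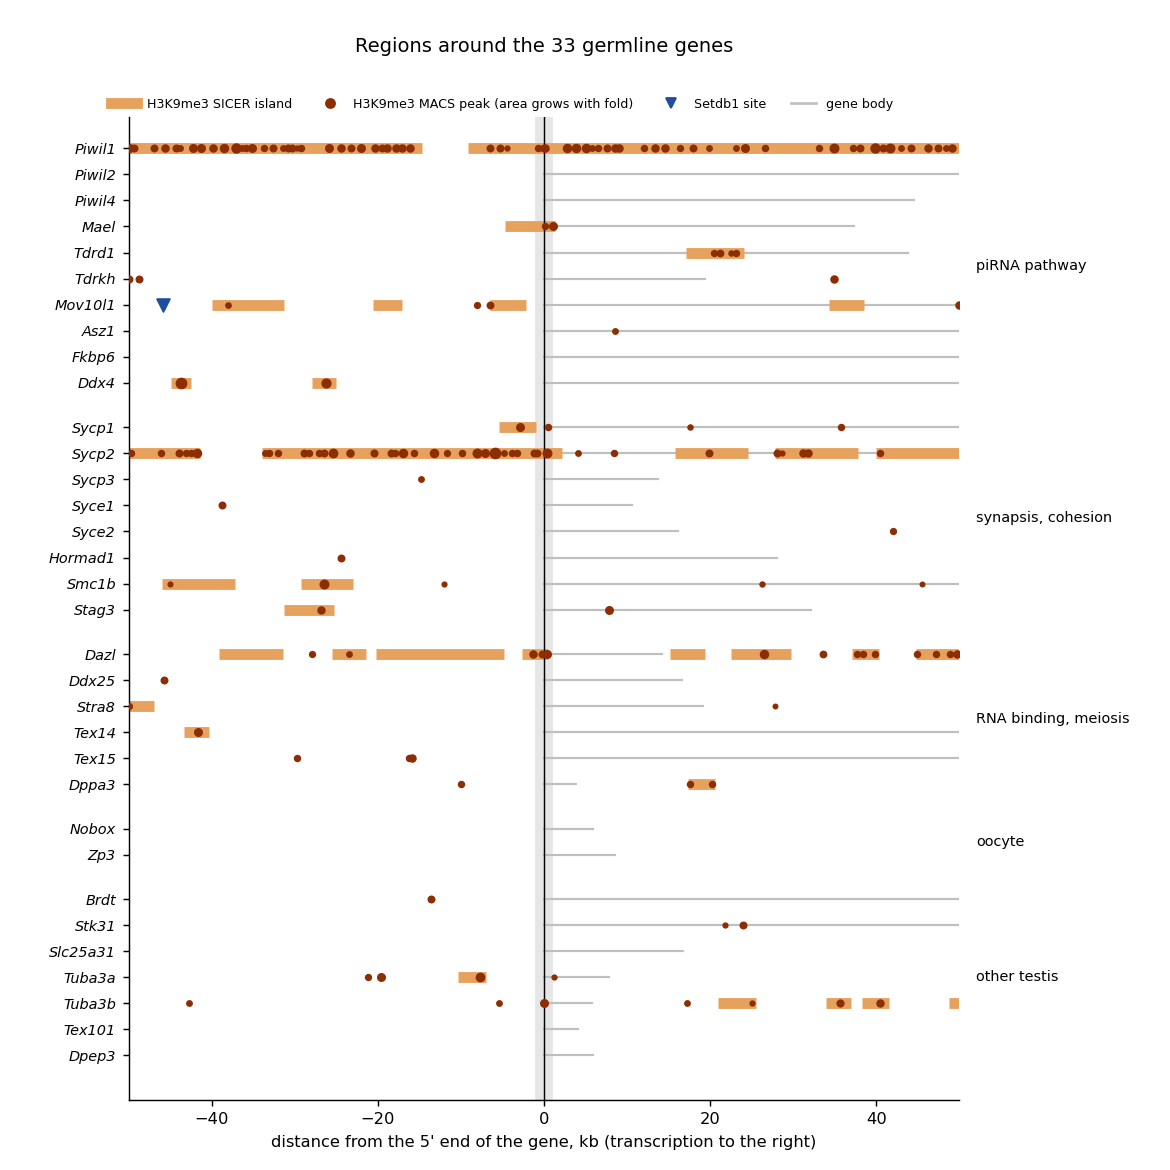
Regions within 50 kb of the 5′ end of each of the 33 germline genes, drawn to scale with transcription to the right (x axis in kb, 1 gene a row, grouped by role). Orange bars are H3K9me3 islands, brown dots H3K9me3 MACS peaks with an area that grows with fold enrichment, the blue triangle the Setdb1 site, grey lines gene bodies and the grey band 1 kb each side of the 5′ end. Piwil1 and Sycp2 lie in long stretches of peaks, the single Setdb1 site lies upstream of Mov10l1, and 7 genes have no region within 50 kb of a start (Piwil4 has a peak near an internal start only, outside the plotted range). The Tex14 peak at internal starts is outside the plotted range too.

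The H3K9me3 lists were made with lower limits than the Setdb1 list. The Setdb1 sites passed a p of 1e-05, a false discovery rate of 1% and 4-fold enrichment, whereas the H3K9me3 peaks needed only a p of 0.001. With H3K9me3 peaks held to a p below 1e-05, 5 germline genes kept a peak at a start (Dazl, Mael, Sycp1, Sycp2 and Tex14), against 4.95% of all genes. With the false discovery rate of at most 1% added, 0 of 33 did, against 0.385%. The same rate did not go with the same p in both lists. The H3K9me3 peak at the Sycp2 start, with −10 log10 p of 229.68, had a rate of 1.13% and failed. A Setdb1 site in Hsf2bp, with −10 log10 p of 59.79, had 0.84% and passed. The count of 0 is therefore not a comparison at equal strength. A gene without a listed Setdb1 site is a gene where no site passed the limits of its list, and absence of the enzyme was not shown. The study itself regards its number of Setdb1 sites as too low, because sequencing depth had not reached a plateau.

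Mark and enzyme were then counted together. An H3K9me3 region at a start with no Setdb1 site within 50 kb was found at 8 germline genes, against 10.3% of all protein-coding genes. This is what most marked genes looked like: 8 of the 9 germline genes with the mark at a start lacked a Setdb1 site within 50 kb, against 87.4% of the 2626 protein-coding genes with the mark at a start. All 24 germline genes without the mark at a start also lacked a site, against 92.5% of such genes in all. The share of marked genes without a listed site was therefore near the background.

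**Figure D2:**
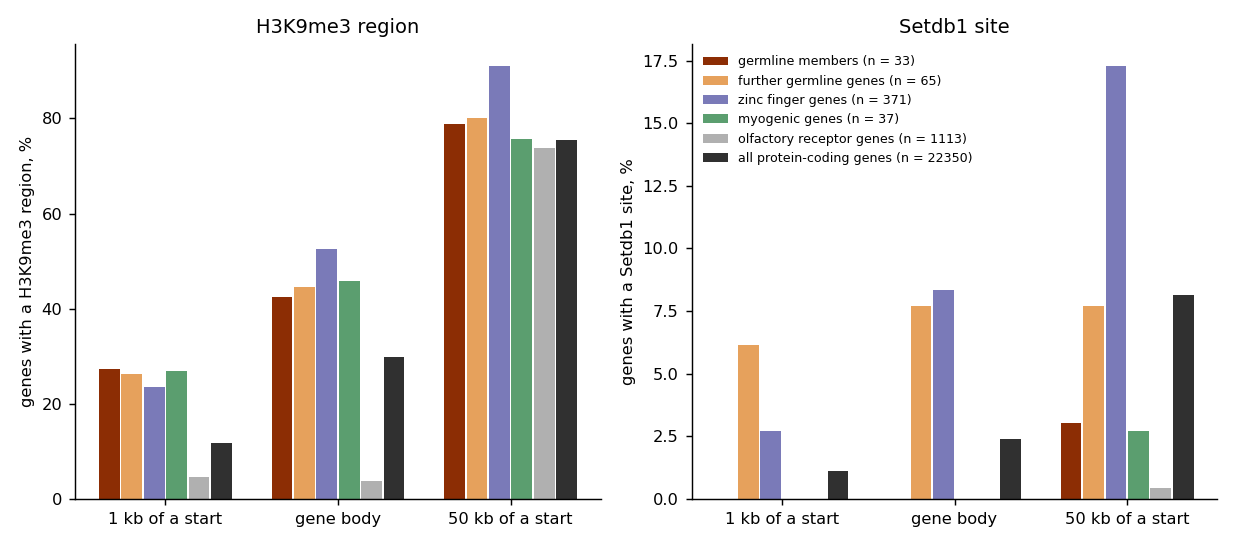
Percent of genes (y axis) with an H3K9me3 region (left) or a Setdb1 site (right) within 1 kb of a start, in the body or within 50 kb of a start, for the germline genes, for 65 further germline genes and for comparison lists, with all protein-coding genes last; the y axes of the panels differ. For H3K9me3 at a start the germline genes stand at 27.3%, zinc finger genes at 23.5%, myogenic genes at 27% and all protein-coding genes at 11.7%. For Setdb1 the germline genes are at 0 at starts and in bodies and at 3.03% within 50 kb.

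Sequences of 6 starts are given from the NCBIM37 genome, as 250 bases before and 50 after the 5′ end of the gene record on the transcribed strand. The first 4 belong to the genes with the highest MACS enrichment at a start (Tex14, equal to the last 3 of these, had its peak at internal starts). The last pair belongs to the genes farthest from any H3K9me3 region, so that marked and unmarked starts can be compared. Capitals mark the E-box CACGTG, which Mga and Max read, and the E2f6-type motif TCCCGC or its reverse complement GCGGGA.
Sycp2, chr2:178142341-178142640, minus strand: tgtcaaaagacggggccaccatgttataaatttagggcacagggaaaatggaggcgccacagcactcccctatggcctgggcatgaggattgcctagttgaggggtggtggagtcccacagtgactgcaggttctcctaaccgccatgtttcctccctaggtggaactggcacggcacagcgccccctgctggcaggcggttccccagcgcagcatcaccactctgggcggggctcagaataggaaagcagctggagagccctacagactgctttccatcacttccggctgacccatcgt
Tuba3b, chr6:145564027-145564326, plus strand: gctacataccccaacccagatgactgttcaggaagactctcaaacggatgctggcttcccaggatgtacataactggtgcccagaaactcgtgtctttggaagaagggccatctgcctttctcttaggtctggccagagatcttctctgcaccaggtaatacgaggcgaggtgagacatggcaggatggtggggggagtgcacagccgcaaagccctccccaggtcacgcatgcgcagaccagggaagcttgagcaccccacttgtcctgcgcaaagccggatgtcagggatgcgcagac
Dazl, chr17:50432875-50433174, minus strand: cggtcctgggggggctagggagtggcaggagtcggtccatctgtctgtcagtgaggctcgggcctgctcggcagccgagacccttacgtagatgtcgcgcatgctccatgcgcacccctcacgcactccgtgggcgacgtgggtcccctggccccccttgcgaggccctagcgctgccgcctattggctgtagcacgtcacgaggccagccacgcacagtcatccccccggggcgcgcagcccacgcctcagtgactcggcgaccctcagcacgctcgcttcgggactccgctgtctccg
Mael, chr1:168168826-168169125, minus strand: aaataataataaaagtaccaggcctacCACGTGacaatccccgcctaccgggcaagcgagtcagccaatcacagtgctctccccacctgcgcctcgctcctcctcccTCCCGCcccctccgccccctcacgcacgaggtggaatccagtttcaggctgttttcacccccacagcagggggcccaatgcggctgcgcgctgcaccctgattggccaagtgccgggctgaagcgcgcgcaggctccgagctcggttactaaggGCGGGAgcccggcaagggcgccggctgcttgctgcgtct
Dpep3, chr8:108503270-108503569, minus strand: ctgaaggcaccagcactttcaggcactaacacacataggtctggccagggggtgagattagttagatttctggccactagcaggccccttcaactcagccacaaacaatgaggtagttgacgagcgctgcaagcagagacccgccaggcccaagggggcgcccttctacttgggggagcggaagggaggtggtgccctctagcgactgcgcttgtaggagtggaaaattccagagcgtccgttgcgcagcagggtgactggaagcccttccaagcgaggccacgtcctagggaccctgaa
Zp3, chr5:136455719-136456018, plus strand: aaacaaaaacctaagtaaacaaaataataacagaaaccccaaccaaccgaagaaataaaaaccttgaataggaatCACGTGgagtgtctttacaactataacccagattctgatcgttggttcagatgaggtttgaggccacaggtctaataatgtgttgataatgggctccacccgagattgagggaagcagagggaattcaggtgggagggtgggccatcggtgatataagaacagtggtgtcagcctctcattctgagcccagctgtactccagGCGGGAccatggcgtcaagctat

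Base composition and motifs varied within both sets. Dazl had 30 CpG dinucleotides in its 300 bases and Mael 24, whereas Sycp2 and Tuba3b had 10 each. Of the unmarked starts, Dpep3 had 12 and Zp3 7. Mael held 1 E-box and 2 E2f6-type motifs and Zp3 held 1 of each, while Sycp2, Tuba3b, Dazl and Dpep3 held none of either. MACS peaks covered all 300 bases at Sycp2, 288 at Tuba3b, 215 at Dazl and 107 at Mael. At Dazl and Mael the peak of highest enrichment, 7.56-fold at each, lay outside these bases. The peaks that covered part of them had 6.18-fold and 5.38-fold enrichment.

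The highest enrichment at a germline start was at Sycp2, with the other genes of its role below it or without a peak there. Sycp2 encodes a protein of the lateral element, the axis along which meiotic chromosomes pair. Its peak at chr2:178141366-178142791 had 80 tags (95% Poisson interval 63.4 to 99.6, which covers counting error only) and a fold enrichment of 8.93 over input, with its summit in an intron 0.14 kb inside the gene. A second peak of 17 tags and 6.18-fold enrichment lay 0.83 kb upstream, and an island of 36.2 kb covered both. Internal starts 32.4 and 32.8 kb into the gene, of transcripts annotated as a retained intron and a processed transcript, had a further peak of 19 tags and 6.87-fold enrichment in an island of 10 kb. In all, 10 MACS peaks fell in the body, regions covered 58.7% of it, and 55 peaks lay within 50 kb of a start. The mark extended into the neighbourhood with gaps between regions, and islands of 228 kb lay beyond the 3′ end and 196 kb upstream. The nearest Setdb1 site was 1054 kb away.

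Sycp1, which forms the transverse filaments of the synaptonemal complex, had an intronic peak of 30 tags and 5.57-fold enrichment at chr3:102739215-102739824, 0.64 kb inside the gene. An island of 4.4 kb began upstream within 1 kb of the start and overlapped the neighbouring gene Nr1h5. Of the 50-base words in its start windows, 49.8% occurred more than once in the genome, against 0 to 10.8% at the other 32 genes. Reads from such words cannot be placed uniquely, and their part in the value was not tested. Sycp3, of the lateral element too, had no region at a start and a single peak of 13 tags 14.6 kb from it.

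The other genes of this role had no region at a start, yet each had a peak within 50 kb. Stag3, a meiotic cohesin subunit, held an intronic peak of 16 tags and 7.56-fold enrichment 7.31 kb from the nearest start. Smc1b, a meiotic cohesin subunit as well, held a pair of intronic peaks of 17 and 21 tags with 4.33-fold and 3.79-fold enrichment, and a stronger peak of 77 tags and 9.03-fold enrichment 26.07 kb upstream in an island of 6.2 kb. Hormad1, which marks unsynapsed axes, and Syce1 and Syce2, of the central element, had their nearest region 24.2, 38.6 and 41.4 kb away. No gene of this role had a Setdb1 site nearer than 153 kb (Hormad1).

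Among the piRNA genes, which silence transposons in germ cells through small RNAs bound by Piwi proteins, Piwil1 had the most mark. It encodes a Piwi protein of meiotic and later male germ cells. The whole body of 19229 bp lay within an island of 101 kb (chr5:129233001-129334000), which also took in part of Rimbp2, and 14 MACS peaks fell in it. The peaks within 1 kb of the start were modest. They had 16, 13 and 15 tags with 5.50-fold, 5.50-fold and 6.87-fold enrichment, and the highest enrichment in the body was 8.25. A second island of 45.8 kb lay upstream, and 67 peaks lay within 50 kb of the start. The nearest Setdb1 site was 3506 kb away. The other Piwi genes differed from Piwil1. Piwil4 had a single peak of 14 tags, 26 kb from an internal start, and Piwil2 had no region within 50 kb, with the nearest 54.9 kb away.

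Mael, a protein of the germ cell cytoplasm and nucleus needed for transposon silencing, had an exonic peak of 14 tags and 5.38-fold enrichment 0.16 kb inside the gene. A second, intronic peak of 15 tags and 7.56-fold enrichment lay 1.14 kb inside, at chr1:168167612-168167901, and an island of 6 kb covered both. The tag intervals of 7.65 to 23.5 and 8.4 to 24.7 overlap, so their tag counts were not distinguishable by counting error.

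Mov10l1, the helicase that feeds precursors into piRNA processing, was the sole germline gene with a Setdb1 site within 50 kb. The site lay at chr15:88766911-88768053, 45.3 kb upstream of the start and 17 kb from the nearest annotated start, that of Ttll8, whose sequence it overlapped. It had 61 tags (46.7 to 78.4) and 5.76-fold enrichment and did not overlap an H3K9me3 region. No region lay at the 5′ end of Mov10l1 itself. The count at a start came from an island of 4.2 kb over an internal start 37.5 kb into the gene, of a processed transcript. The strongest peak in any germline gene body was in a Mov10l1 intron, at chr15:88878421-88879786, with 111 tags (91.3 to 134) and 11.10-fold enrichment. It was also the only one in a germline gene body that passed a false discovery rate of 1% (0.77%). H3K9me3 regions and Setdb1 sites were frequent on chromosome 15. Regions covered 17.2% of its sequence, against 2.43 to 12.4% of the other chromosomes, 18.1% of its protein-coding genes had a region at a start and 16.2% a Setdb1 site within 50 kb, against 11.7% and 8.14% on all chromosomes. Their part in the Mov10l1 and Smc1b values was not tested.

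Tdrd1, a Tudor protein that binds Piwi proteins, had no region at a start but 4 intronic peaks of 14 to 43 tags in an island of 7 kb that made up 16% of its body. Asz1, a protein of the cement between germ cell mitochondria, held 1 intronic peak of 14 tags and 4.81-fold enrichment 8.39 kb from a start. The nearest region to Ddx4, the germ cell RNA helicase also known as Vasa, was an upstream island of 2.8 kb that overlapped Slc38a9, 25.1 kb away. It held a peak of 60 tags and 9.35-fold enrichment with its summit 26.04 kb from the start. Farther upstream, also in Slc38a9, a peak of 37 tags reached 11.68-fold, the same value as the highest near Sycp2. Tdrkh, a Tudor protein of piRNA trimming, had its nearest region 34.6 kb away, and Fkbp6, a co-chaperone of the pathway, had none within 50 kb (52.3 kb).

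Of the genes of RNA binding and meiotic entry, Dazl was the clearest. It encodes an RNA-binding protein that germ cells of both sexes need. Its intronic peak at chr17:50432283-50432783 had 27 tags (17.8 to 39.3) and 7.56-fold enrichment, and a second peak of 16 tags and 6.18-fold enrichment lay 0.22 kb upstream. An island of 3.2 kb lay over both, and further islands of 3.2 to 15.4 kb flanked the gene on either side. Its nearest Setdb1 site was 4425 kb away. Tex14, needed for the intercellular bridges of germ cells, had its peak of 32 tags and 7.56-fold enrichment at internal starts 132 and 134 kb from the 5′ end, in an intron. Its 5′ end carried none. Stra8, which responds to retinoic acid at meiotic entry, Tex15, Ddx25, a testis RNA helicase, and Dppa3, a maternal factor of early germ cells, had no region at a start or in the body. Their nearest regions lay 26.6, 15.8, 45.6 and 9.82 kb away.

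The oocyte genes had no mark within 50 kb. The nearest region to Zp3, which encodes a zona pellucida glycoprotein, lay 123 kb away and its nearest Setdb1 site 115 kb away. For Nobox, an oocyte homeobox factor, these distances were 81 and 1724 kb.

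The testis α-tubulin genes Tuba3a and Tuba3b were both marked at their start, weakly and without an island there. Tuba3b had 16 tags and 7.56-fold enrichment at chr6:145564039-145564421, with the summit 0.05 kb upstream of the 5′ end. Tuba3a had 13 tags and 4.12-fold enrichment at chr6:125234733-125235075, where the near edge of the peak was 0.985 kb from the start, just inside the limit of 1 kb. No 50-base word in the start windows of either gene was repeated exactly in the genome. Words repeated with mismatches were not counted. Stk31, a testis kinase-like gene, held 3 weak peaks in its body, the strongest of 16 tags and 6.18-fold enrichment. Brdt, the bromodomain protein of spermatids, had its nearest peak 13.5 kb upstream. Slc25a31, the testis adenine nucleotide carrier, and Tex101 and Dpep3, of the sperm cell surface, had no region within 50 kb. The distances were 72.2, 50.8 and 125 kb, so that Tex101 fell just outside the limit, as did Fkbp6 and Piwil2.

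**Figure D3:**
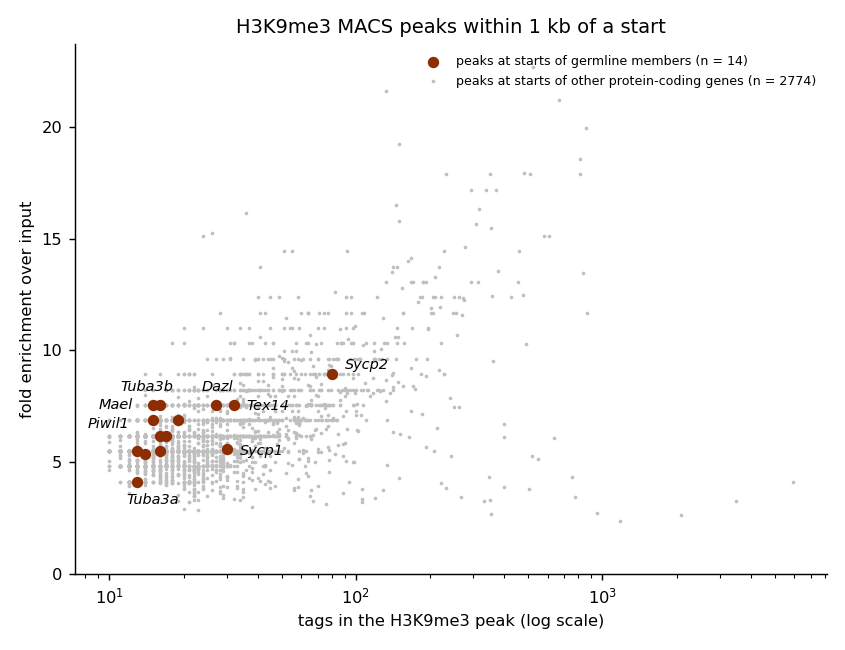
Fold enrichment over input (y axis) against tags (x axis, log scale) of H3K9me3 MACS peaks within 1 kb of a start, for the 14 peaks of the germline genes (brown, the strongest of each gene named) and the 2774 peaks of other protein-coding genes (grey). The germline peaks have 13 to 80 tags and stand inside the cloud of the other peaks, with Sycp2 the highest of them at 8.93-fold.

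Peaks at germline starts were of ordinary strength. Across the 8 genes with a MACS peak at a start, the strongest peak had a median fold enrichment of 7.56 (4.12 to 8.93), against 6.18 (2.36 to 22.7) across the 1946 protein-coding genes with such a peak. Over all 14 peaks at germline starts the median was 16 tags and 6.53-fold, against 22 tags and 6.09-fold over the 2774 peaks at other starts. Coverage of the body was uneven among the germline genes. It was 100% at Piwil1, 58.7% at Sycp2, 16% at Tdrd1 and 14.1% at Mov10l1, below 5% at the other 10 genes with a region there and 0 at 19. The mean was 6.37%, against 5.41% for all genes. Without Piwil1 the mean was 3.44%, and without Sycp2 as well 1.66%. The mean thus rested on these 2 genes.

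Setdb1 sites lay beyond 50 kb of all but 1 germline gene, although the median distance was smaller than for all genes. The median distance from a start to the nearest site was 239 kb (45.3 to 6424 kb), against 628 kb for all protein-coding genes. To the nearest H3K9me3 region it was 14.6 kb (0 to 125 kb), against 18.9 kb. The 3 closest sites belonged to Mov10l1, Slc25a31 and Tuba3a. The site nearest Slc25a31 had 26 tags and 8.05-fold enrichment at chr3:40440089-40440596, 0.631 kb from the start of Intu and 72.2 kb from that of Slc25a31, and overlapped an H3K9me3 region. The site nearest Tuba3a had 26 tags and 6.71-fold enrichment at chr6:125315934-125316400, 5.81 kb from the start of Tnfrsf1a and 79.9 kb from that of Tuba3a, and overlapped a region too. Of the 33 genes, 10 (30.3%) were more than 1000 kb from a site, against 39.2% of all genes. The nearest sites were 31 distinct ones, and for 21 genes (63.6%) the nearest site overlapped an H3K9me3 region, against 66.4% of all genes.

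**Figure D4:**
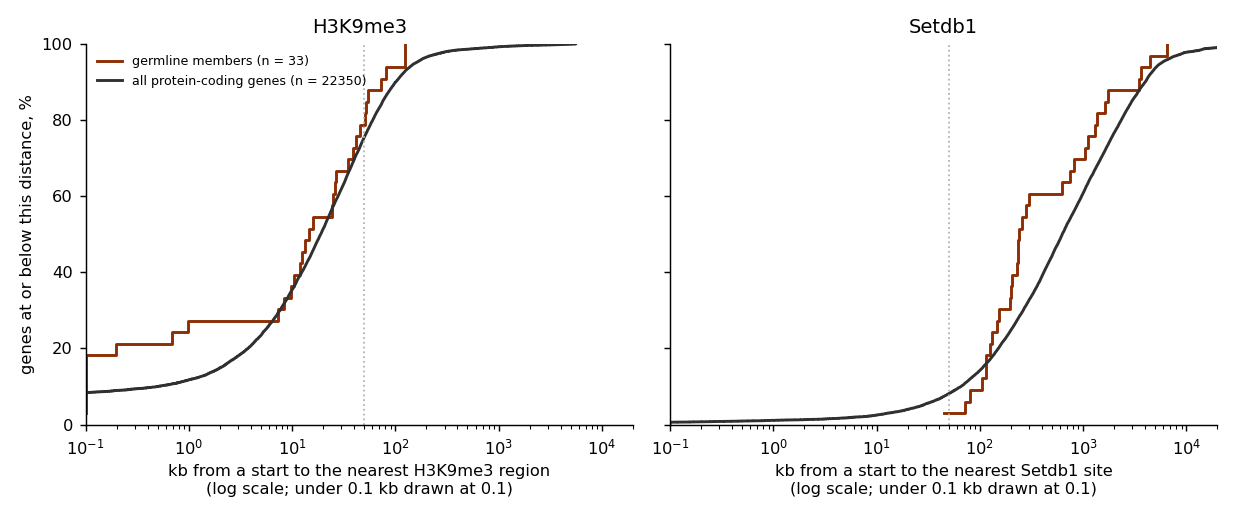
Cumulative percent of genes (y axis) by distance in kb (x axis, log scale, distances under 0.1 kb drawn at 0.1) from a start to the nearest H3K9me3 region (left) and the nearest Setdb1 site (right), for the 33 germline genes (brown) and all protein-coding genes (black); the dotted line is at 50 kb. The germline curve starts above that of all genes for H3K9me3 and then runs along it, whereas for Setdb1 it begins at 45.3 kb and reaches its median at 239 kb, against 628 kb.

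Sequence features were read at the 5′ end of each gene record. The genes were chosen by name, and whether that choice favoured starts with these features was not tested. The E-box CACGTG was present in the 300 bases of 15 of the 33 germline starts (45.5%), against 7.79% of all protein-coding starts. The E2f6-type motif TCCCGC on either strand was present in 13 (39.4%), against 24.4%, and both together in 8 (24.2%), against 2.52%. The motifs overlapped in none of the 33. CpG-rich starts, with over 50% GC and an observed to expected CpG ratio above 0.6 in the 250 bp on each side, numbered 20 (60.6%), against 47.7%. Median GC content was 61.9%, against 57.1%, and the median CpG ratio 0.667, against 0.588. These shares hold for the 33 genes and not for germline genes at large. In the list of 65 further germline genes counted below, an E-box was present at 8 starts (12.3%) and the E2f6-type motif at 17 (26.2%). Both motifs were present at 1 (1.54%), and 25 starts (38.5%) were CpG-rich. The mark lay at the 5′ end itself of 7 of the 9 marked germline genes, since Mov10l1 and Tex14 carried it at internal starts only. These 7 make up 21.2% of the 33 genes, and the mark was at the 5′ end of 9.12% of all genes. An E-box was present at the 5′ end of 15 germline genes, of which 3 were marked there (20%, against 9.14% of all genes with an E-box), and 4 of the 18 without were marked (22.2%, against 9.12%). With the E2f6-type motif 3 of 13 were marked (23.1%, against 10% of all such genes), and without it 4 of 20 (20%, against 8.84%). Of the CpG-rich genes 3 of 20 were marked (15%, against 9.53%), and of the others 4 of 13 (30.8%, against 8.75%). These counts are small, and the differences between them were not tested. A motif match is a match of letters, and binding was not measured.

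**Figure D5:**
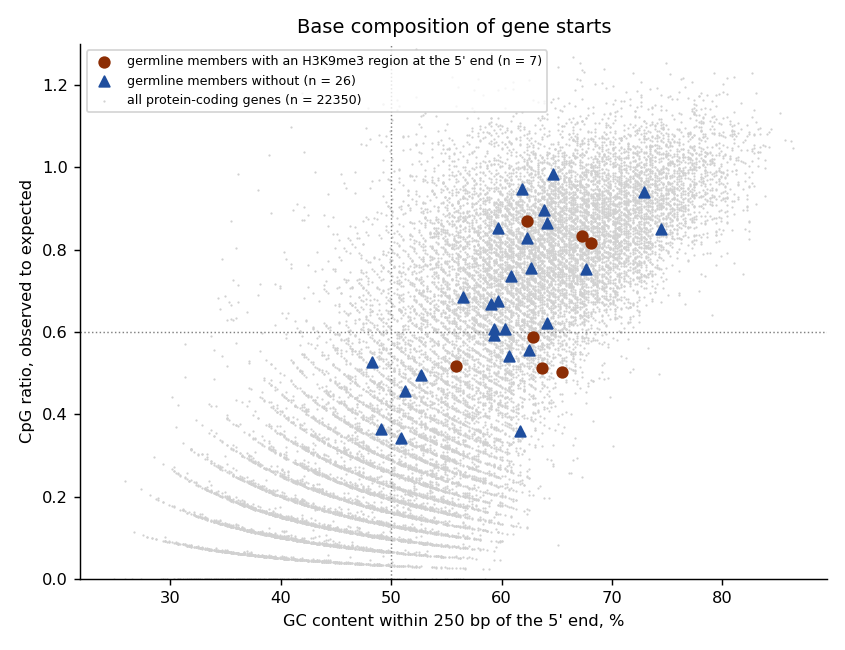
Observed to expected CpG ratio (y axis) against GC content in percent (x axis) of the 250 bp on each side of the 5′ end, for the 7 germline genes with an H3K9me3 region within 1 kb of that 5′ end (brown circles), the 26 without (blue triangles) and all protein-coding genes (grey). Dotted lines are the limits for CpG-rich starts; 3 of the 7 marked and 17 of the 26 unmarked germline genes lie above both.

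A list of 69 further germline genes was counted in the same way, and 65 were annotated (not Meiob, Tdrd5, Henmt1 and Meioc). An H3K9me3 region lay at a start of 17 (26.2%), in the body of 29 (44.6%) and within 50 kb of 52 (80%), against 11.7%, 29.9% and 75.5% of all genes. The highest enrichments at a start were at Lhx8, an oocyte transcription factor gene (8.25-fold, with 71.3% of the body covered), Dmc1, the meiotic recombinase (6.98-fold), Ddx43, a testis helicase, and Dmrt1, a transcription factor of testis development (6.87-fold each). Taf7l, a spermatogenic TFIID subunit, and the Tudor gene Tdrd6 followed at 6.18-fold, then Boll, of the Dazl family, at 5.50-fold, and Prdm9, which sets sites of meiotic recombination, at 5.04-fold. Mlh3, Rnf17, Rpl10l and Spo11 were equal at 4.81-fold.

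Setdb1 sites did occur at germline genes outside the 33. A site lay at a start of 4 of the 65 further genes (6.15%), against 1.11% of all genes, and in the body of 5 (7.69%), against 2.4%. Within 50 kb of a start a site was found at 5 of them (7.69%), near the 8.14% of all genes. At Prdm9 the site had 43 tags (31.1 to 57.9) and 5.18-fold enrichment and overlapped both an H3K9me3 peak of 64 tags and an island of 1.8 kb. At Gtsf1, a piRNA factor, a site of 35 tags and 5.81-fold enrichment lay on an H3K9me3 peak of 3.65-fold enrichment. The sites of the meiotic genes Hormad2 (39 tags, 5.86-fold) and Msh5 (37 tags, 4.97-fold) had no H3K9me3 region at the start, though peaks lay elsewhere in both bodies. An intron of Hsf2bp, a partner of meiotic recombination factors, held a site of 35 tags and 4.94-fold enrichment, 9.45 kb from the nearest annotated start. Its distance from the 5′ end was 30.55 kb. That site lay wholly inside an H3K9me3 peak (43 tags, 5.01-fold) and an island of 2.4 kb. Gtsf1, Hormad2, Msh5 and Hsf2bp were named after their values were seen. The difference in Setdb1 counts between the lists, 4 of 65 and 0 of 33, was not tested.

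With both callers merged, the share of germline genes with the mark at a start was near those of the myogenic and zinc finger lists. It was above that of the olfactory receptor list. It was 27.3% for the 33 germline genes, and 27% for 37 myogenic genes (10), 23.5% for 371 zinc finger genes (87) and 4.67% for 1113 olfactory receptor genes (52), against 11.7% of all genes. With MACS peaks alone the germline share (24.2%) was above those of the myogenic (13.5%) and zinc finger genes (17%). With islands alone it was 18.2%, against 18.9% and 21.3%. Setdb1 sites within 50 kb were found at 1 germline gene (3.03%), and at 1 myogenic gene (2.7%), 64 zinc finger genes (17.3%) and 5 olfactory receptor genes (0.449%), against 8.14% of all genes. These lists differ in gene length and clustering, and the shares are descriptions of single libraries.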

How the data were processed

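Reads of each ChIP-seq library were aligned by the authors to mm9 with Bowtie 0.12.7, and uniquely aligned reads without PCR duplicates were kept. MACS 1.4 was run over input without its model (shift size 50) at p 0.001 for H3K9me3, and SICER with windows of 200 bp and gaps of 1000 bp, its use of the input not being stated. Tag counts deposited per peak are whole ChIP reads and are unscaled. Fold enrichment, as deposited, is the ratio of ChIP reads to the background MACS took from the input. The score deposited is −10 times log10 of the MACS p-value, and the deposited false discovery rate is in percent and, in the H3K9me3 list, did not fall steadily with the score. Islands have positions only. Library totals were not used, so tags per region are the only depth.

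The lists held 1191 Setdb1 sites (12 to 389 tags), 80480 H3K9me3 peaks (10 to 5949 tags) and 23268 islands, merged for H3K9me3 into 52190 regions over 189 Mb. They were set against GENCODE vM1 genes by overlap of at least 1 bp, with starts taken as every annotated transcript start. Intervals on tags are exact 95% Poisson intervals. With 1 library a group no test was made, and counts stand beside those of all protein-coding genes. Every one of the 33 genes is named, with the 3 closest Setdb1 sites, up to 10 further germline genes by MACS enrichment at a start (ties kept), and promoters of up to 4 genes by that enrichment (at equal enrichment, the peak nearest the 5′ end) and of 2 genes without a region within 50 kb. The genes and lists were chosen with earlier results of these data known. Overlaps were tested on simulated intervals. Python 3.11.15, NumPy 2.4.6, SciPy 1.17.1, pandas 2.3.3, pysam 0.24.0 and Matplotlib 3.10.9 were used. Alternatives changed the caller, limits, windows, starts, overlap and background.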

Additional observations from a re-analysis of the deposited data

How the results depend on the processing

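No paired analysis was possible because there was 1 library per group. The count of 9 germline genes with H3K9me3 at a start fell to 5 with both callers required (against 5.53% of all genes) and to 5 with MACS p below 1e-05 (4.95%). It was 0 with a false discovery rate of at most 1% added (0.385%) and 0 with the limits of the Setdb1 list (0.371%). The other 10 of 14 alternatives gave 6 to 9 genes. With 2 kb and 5 kb windows the count remained 9, while the share of all genes was 14.9% and 23.4%. For bodies the 14 genes became 6 (18.2%) with islands alone or both callers, against 19.4% and 17.6% of all genes, 8 with p below 1e-05 (17.9%), and 1 with the false discovery rate (1.56%) or the Setdb1 limits (1.55%). Within 50 kb the 26 genes became 17 with islands alone or both callers (49.9% and 48.8% of all genes), 2 with the false discovery rate or the Setdb1 limits (4.18% with either) and 12 within 10 kb (35.4%). The 1 gene with a Setdb1 site became 0 within 10 kb, 3 within 100 kb and 0 with sites of at least 8-fold enrichment, against 2.48%, 14.2% and 3.12% of all genes. The 8 genes with the mark at a start and no Setdb1 site became 5 with islands alone, both callers or p below 1e-05 (7.41%, 4.72% and 4.13% of all genes), and 0 with the false discovery rate or the Setdb1 limits (0.268% and 0.26%). The causes were not tested beyond the smaller number of regions under each limit: 31022 peaks had p below 1e-05, 839 also met the false discovery rate and 831 the Setdb1 limits. The Setdb1 limits and the counts without Sycp1 (8, 13, 25 and 7 genes) were chosen after seeing the data.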

Other observations

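Several regions near germline genes were shared with neighbours. The islands on either side of Sycp2 overlapped Phactr3 and Cdh26, and the island over its start also covered Ppp1r3d and 9030418K01Rik. The peak of highest enrichment near Sycp2 (106 tags, 11.68-fold) lay 6.04 kb upstream of its start, over Ppp1r3d. The peak with most tags (193, 8.93-fold) lay in Phactr3. Tdrkh and Hormad1 on chromosome 3 shared their nearest Setdb1 site (29 tags, 7.38-fold), which lay 1300 and 153 kb from their starts in an H3K9me3 region. Zp3 and Fkbp6 on chromosome 5 shared another (39 tags, 6.06-fold), 0.298 kb from the start of Rasa4 and outside any H3K9me3 region.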
